A study of Mus musculus with 12 samples.

Results

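The proteasome genes were taken as the symbols that begin with Psma, Psmb, Psmc, Psmd, Psme, Psmf or Psmg and end in a number, which gave 48 of the 22923 gene symbols in the files. The RNA was that of proximal hind leg muscle, frozen whole, from male FVB/N mice aged 22 weeks, so that muscle fibres, vessels, fat and blood-borne cells contributed to each library. There were 12 libraries in 4 groups of 3 mice. WT mice, which the titles call Flox and the study calls wild-type littermates, and KO mice, which lack αB-crystallin (Cryab) and HspB2 (Hspb2) in the whole body, were each fed 1 of 2 diets. The normal chow groups are called WT chow and KO chow, and the groups on high fat diet, with about 60% of energy from fat from 6 weeks of age, WT high fat and KO high fat. The study asked whether these 2 small heat shock proteins together have a part in the metabolic changes of obesity brought on by diet.

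The proteasome is the protease complex that degrades proteins marked with ubiquitin. Its barrel, the 20S core, is made of rings of α and β subunits, and the 19S cap holds ATPases that unfold substrates and non-ATPase subunits that bind and cleave ubiquitin chains. In leukocytes, and in many other cells after interferon, the catalytic β subunits Psmb5, Psmb6 and Psmb7 are replaced by Psmb8, Psmb9 and Psmb10, which form the immunoproteasome and shift the cut peptides toward those that class I molecules present. In muscle the constitutive proteasome carries much of the breakdown of contractile proteins.

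By role the 48 genes comprised 7 α subunits, 7 constitutive β subunits, 3 immunoproteasome subunits, 6 ATPases and 11 non-ATPase subunits of the cap, 3 chaperones of cap assembly, 4 activators, 1 inhibitor, 4 chaperones of core assembly and 2 tissue-restricted subunits. The α, constitutive β, ATPase and non-ATPase classes together are called the constitutive subunits here, 31 genes in all. Psma8, a testis subunit, and Psmb11, a thymus subunit, had means of 0.0532 and 0.00700 FPKM and did not reach the minimum for testing, which was 1 FPKM in at least 3 libraries. The other 46 genes passed it, among 11945 genes that did.

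In the GENCODE annotation of GRCm38, the 48 genes lie on 16 chromosomes. Psmb9 (chr17:34181987-34187764, minus strand) and Psmb8 (chr17:34197721-34201454, plus strand) flank Tap1, which encodes a subunit of the peptide transporter of class I presentation. The exons of Psmb9 and Tap1 share bases over an overlap of 212 bp on opposite strands, and since no source used here states whether strand was used in the quantification, reads in the shared bases cannot be told apart. Psmb8 begins 495 bp beyond the end of Tap1, and Tap2 begins 2072 bp beyond Psmb8. Psmb10 (chr8:105935735-105938444) lies apart from them, as do Psmb5 (chr14:54614119-54618022), Psmb6 (chr11:70525367-70527858) and Psmb7 (chr2:38588036-38644087). In all, 8 of the 48 genes share exon bases with another coding gene, Psmb7 and Psme1 among them.

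For 3 motifs, spellings were searched on both strands of the RefSeq promoter windows of GRCm38.p6, which run from 250 bases before to 50 bases after a transcript start and existed for 40 of the 48 genes. They were GAAA, any 2 bases and again GAAA for the interferon-stimulated response element, TTCNNNGAA for the gamma-activated sequence of interferon-responsive promoters, and TGACNNNGC for the antioxidant response element bound by Nfe2l1 and its relatives. The stretches below show the matches in catalytic subunits, from the C57BL/6J reference and not from FVB/N, with the matching bases in capitals.
Psmb8, TTCNNNGAA, chr17:34198088-34198116, plus strand: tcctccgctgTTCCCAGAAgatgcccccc
Psmb5, TGACNNNGC, chr14:54618024-54618052, minus strand: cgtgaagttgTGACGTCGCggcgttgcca
Psmb6, TGACNNNGC, chr11:70525338-70525366, plus strand: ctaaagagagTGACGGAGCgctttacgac
The matches began 97, 47 and 9 bases before the RefSeq start of Psmb8, Psmb5 and Psmb6. That of Psmb8 lies inside the GENCODE span of the gene, which begins further upstream. TTCNNNGAA was present for 1 of the 3 immunoproteasome genes and 1 of 25 constitutive genes with a window, against 9.55% of all genes. TGACNNNGC was present for none of the 3 and for 4 of the 25 (Psmb5, Psmb6, Psmc6 and Psmd12), or 16%, against 14.0% of all genes. The spelling of the interferon-stimulated response element was present for none of the 3 and for 2 of the 25 (Psmb3 and Psmd4), against 3.99% of all genes. A missing match says only that these letters were not in the window.

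Both deleted genes followed the titles. Cryab was at 412 to 837 FPKM in the 6 WT libraries and at 0.845 to 1.75 FPKM in the 6 KO libraries, and Hspb2 at 81.5 to 103 against 0.353 to 1.92 FPKM. A second genotype label conflicts with the title in 6 of 12 libraries, and titles were used here. Relative depth, judged from the smallest step between low values, lay between 0.993 and 1.35, and the number of reads is unknown. The muscle creatine kinase gene Ckm was at 13276 to 25896 FPKM, so the libraries were muscle RNA. Among muscle markers, Myh4 was listed at 0 in all 12 libraries and Acta1 at 0 in 2, WT chow 1 and KO high fat 2. A listed 0 need not mean that the gene was silent. Acta1 is among the 10 muscle markers tested below, so its fold changes there rest on these 0 values.

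Libraries WT chow 2, KO chow 1 and KO chow 3 stood apart from the rest. Their summed level of 11 T and B cell markers was 75.1, 84.9 and 85.8 FPKM, with all 11 markers at or above 1 FPKM. In the other 9 libraries the sum lay between 0.612 and 6.25 FPKM, with 9 to 11 of the markers under 1 FPKM. Cd3e was listed at 0 in WT chow 1, and the lymph node vessel gene Glycam1 was listed at 0 in 7 of those 9 libraries against 11.9 to 34.3 FPKM in the 3. These are called the lymphoid-rich libraries below, and results are given with and without them, which leaves 2 WT and 1 KO libraries on normal chow. That separation was made after the values had been seen.

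Constitutive subunits were abundant and even. FPKM is scaled to transcript length, so levels of different genes can be set side by side. Means over the 12 libraries ran from 48.0 FPKM for Psmd14, the deubiquitinase of the cap, to 306 FPKM for Psmb7, the trypsin-like catalytic subunit, with a median of 100.1 FPKM. Among 11945 genes tested, 87.9% had a lower mean than Psmd14 and 97.8% a lower mean than Psmb7. The α subunits ran from 66.8 FPKM for Psma5 to 146 FPKM for Psma7, and the constitutive β subunits from 86.9 FPKM for Psmb2 to 306 FPKM for Psmb7. The ATPases ran from 67.2 FPKM for Psmc4 to 120.0 FPKM for Psmc3, and the non-ATPase subunits up to 123 FPKM for Psmd2, a scaffold that docks ubiquitin receptors. Subunits that stand in the complex in equal number were therefore not at equal RNA level, and the range within the 7 constitutive β subunits was the widest of the 4 classes.

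Immunoproteasome subunits were at a lower level with a wider spread. Means were 14.8 FPKM for Psmb8, 14.4 FPKM for Psmb10 and 10.3 FPKM for Psmb9, each below the mean of every constitutive subunit. The coefficient of variation (CV, the SD over 12 libraries as a percent of the mean) was 51.2% for Psmb8, 46.2% for Psmb9 and 26.0% for Psmb10. Those were the highest 3 CVs of the 46 genes, and the next was 16.1% for Psmb2, the β4 subunit. Over the 31 constitutive subunits the CV ran from 8.27% to 16.1% with a median of 10.5%. Of all genes tested, 93.6%, 92.3% and 80.4% had a lower CV than Psmb8, Psmb9 and Psmb10. From the lowest to the highest library, constitutive subunits differed by 1.29 to 1.68 times and the immunoproteasome subunits by 2.17 to 4.37 times.

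**Figure D1:**
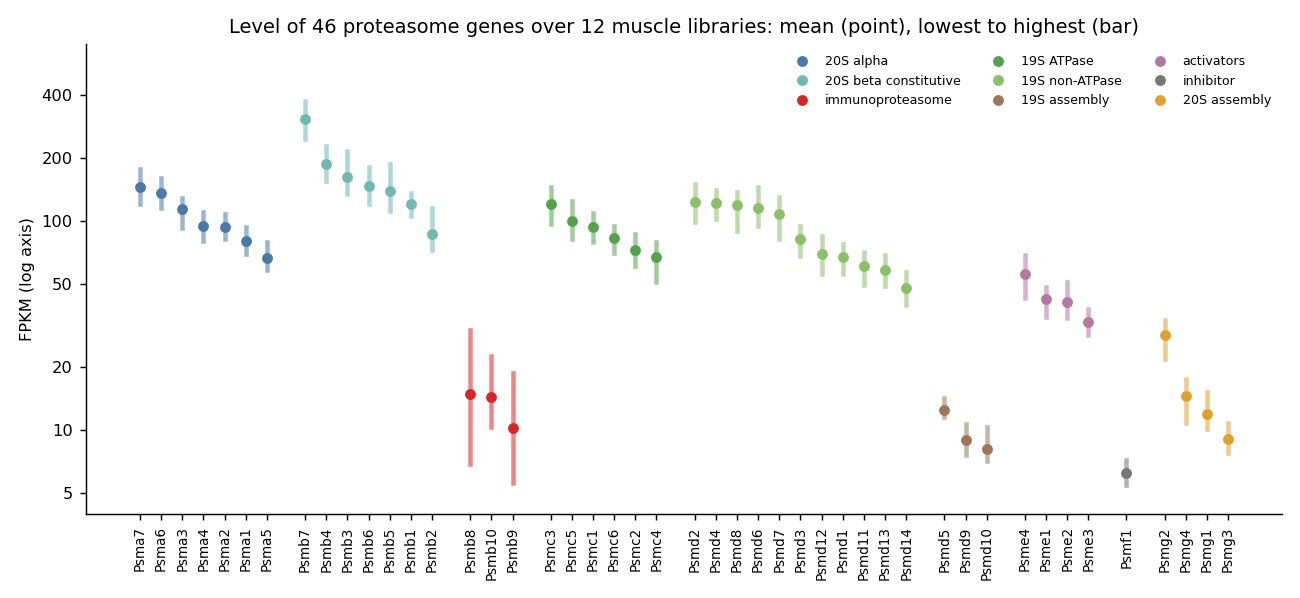
Mean FPKM (points) and lowest to highest library (bars) of the 46 proteasome genes that passed the filter, on a log axis, coloured by role, over 12 libraries. The 3 immunoproteasome genes lie between 10.3 and 14.8 FPKM with long bars, and the 31 constitutive subunits between 48.0 and 306 FPKM with short bars.

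Assembly chaperones and the inhibitor were lower than every constitutive subunit, whereas the activator Psme4 was above Psmd14. Activator means ran from 33.1 FPKM for Psme3, the nuclear PA28γ, to 56.0 FPKM for Psme4 (PA200). Chaperones of core assembly ran from 9.10 FPKM for Psmg3 to 28.6 FPKM for Psmg2, and those of cap assembly from 8.16 FPKM for Psmd10 (gankyrin) to 12.5 FPKM for Psmd5. Psmf1, the inhibitor PI31, was at 6.29 FPKM, the lowest mean of the 46.

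Psmb8, the chymotrypsin-like subunit β5i, differed most between libraries. It was at 6.88, 24.04 and 9.89 FPKM in the WT chow group, at 9.52, 8.17 and 12.5 FPKM in the WT high fat group, at 30.1, 11.4 and 25.6 FPKM in the KO chow group, and at 13.0, 16.6 and 10.5 FPKM in the KO high fat group. The 3 highest values were those of the lymphoid-rich libraries, and the other 9 lay between 6.88 and 16.6 FPKM. Its constitutive counterpart Psmb5 was at 156, 121 and 142 FPKM, at 187, 137 and 146 FPKM, at 111, 135 and 119 FPKM, and at 131, 146 and 139.7 FPKM in the same order. The lymphoid-rich libraries held the 3 lowest values of Psmb5, at 111 to 121 FPKM.

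Psmb9, the subunit β1i next to Tap1, was at 5.76, 13.5 and 6.15 FPKM in the WT chow group, at 5.60, 6.67 and 9.01 FPKM in the WT high fat group, at 18.7, 9.59 and 16.6 FPKM in the KO chow group, and at 8.61, 16.6 and 6.89 FPKM in the KO high fat group. Library KO high fat 2 thus matched KO chow 3, and both were above WT chow 2. Its counterpart Psmb6 was at 158, 132 and 143 FPKM, at 181, 153 and 147.5 FPKM, at 121, 141 and 128 FPKM, and at 143, 159.6 and 146 FPKM in that order.

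Psmb10, the subunit β2i, was at 11.4, 16.4 and 10.8 FPKM, at 14.0, 10.4 and 13.7 FPKM, at 18.97, 11.3 and 17.3 FPKM, and at 13.1, 22.7 and 12.6 FPKM in the same order of groups. Its highest library was KO high fat 2, above the 3 lymphoid-rich libraries. Psmb7, the counterpart, was at 350.1, 271 and 306 FPKM, at 374, 307 and 305 FPKM, at 247, 294 and 258 FPKM, and at 305, 323 and 337 FPKM. As for Psmb5 and Psmb6, its 3 lowest libraries were the lymphoid-rich ones.

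**Figure D2:**
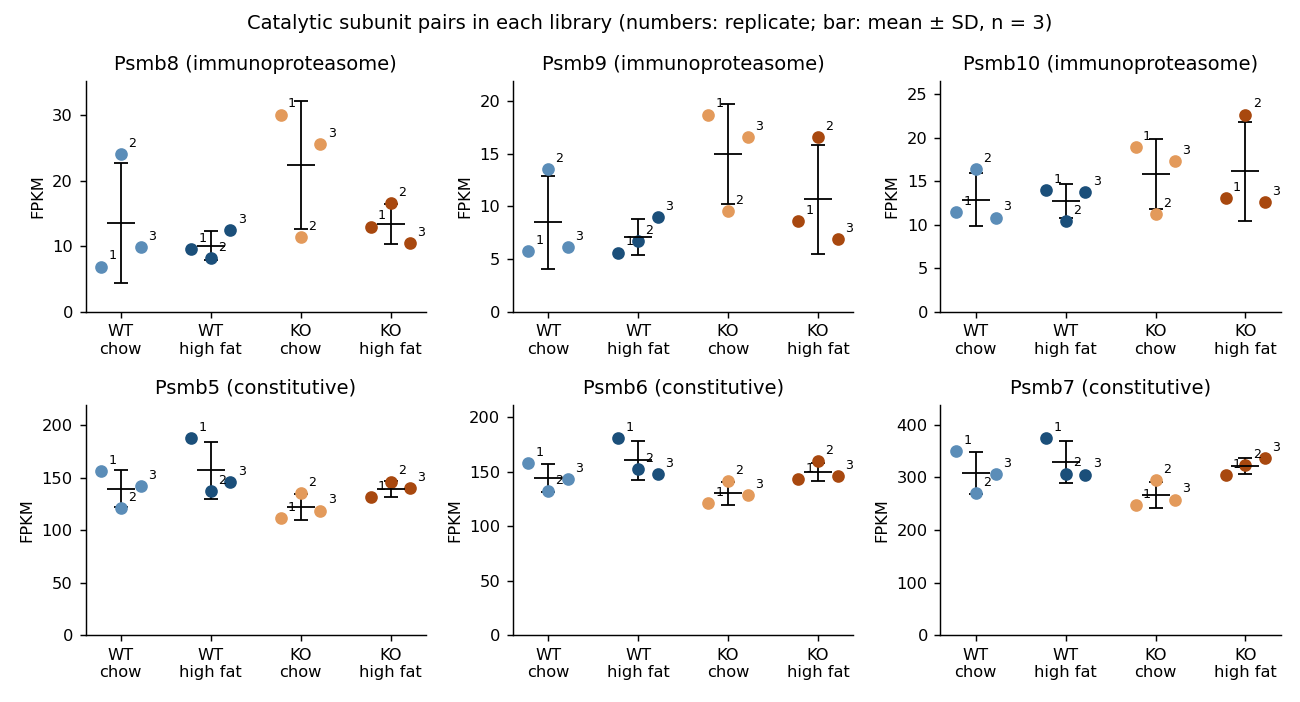
FPKM of the immunoproteasome subunits (top) and their constitutive counterparts (bottom) in each library, with replicate numbers, axes from 0, and the mean ± SD of 3 mice in each group. Libraries WT chow 2, KO chow 1 and KO chow 3 are high in the top row and low in the bottom row, and KO high fat 2 is highest for Psmb10 at 22.7 FPKM.

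The ratio of each immunoproteasome gene to its counterpart was at most 27.1% in the 12 libraries. Psmb8 was at 10.4% ± 8.32 of Psmb5 in the WT chow group, 6.54% ± 1.83 in the WT high fat group, 19.03% ± 9.57 in the KO chow group and 9.59% ± 1.92 in the KO high fat group (SD, n = 3 each). Over libraries it ran from 4.41% to 27.1%, a 6.13-fold range. Psmb9 to Psmb6 gave 6.07% ± 3.64, 4.53% ± 1.51, 11.7% ± 4.47 and 7.03% ± 2.97 in the same order, with a 4.99-fold range over libraries. Psmb10 to Psmb7 gave 4.29% ± 1.55, 3.88% ± 0.569, 6.08% ± 2.01 and 5.02% ± 1.75, with a 2.35-fold range. In each pair the highest group mean was that of the KO chow group, and its SD overlapped other groups. Without the lymphoid-rich libraries that group was a single library, at 8.44%, 6.80% and 3.83% for the 3 pairs, and the WT chow means were 5.70%, 3.98% and 3.40% without WT chow 2.

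Within a library the constitutive subunits moved together. On log2(FPKM + 1), relative to each gene's mean over 12 libraries, the median of the 31 genes was 0.18, -0.16 and -0.01 in the WT chow group, and 0.22, 0.01 and -0.01 in the WT high fat group. It was -0.26, -0.01 and -0.16 in the KO chow group, and -0.02, 0.09 and 0.09 in the KO high fat group. The same median over all genes tested stayed between -0.03 and 0.03 in each library. All 31 subunits lay above their mean in WT chow 1 and WT high fat 1. All 31 lay below it in WT chow 2 and KO chow 1, and 29 of 31 in KO chow 3. KO chow 1 was the lowest library for 28 of the 31 genes. The summed FPKM of a whole library, without its largest value, had the same extremes. That sum was 656456 in WT high fat 1 and 597269 in WT chow 1. It was 476504 in KO chow 1, 484182 in KO chow 3 and 514666 in WT chow 2, and 540855 to 582315 in the rest. The part of this difference in scale in the level of the subunits was not tested.

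**Figure D3:**
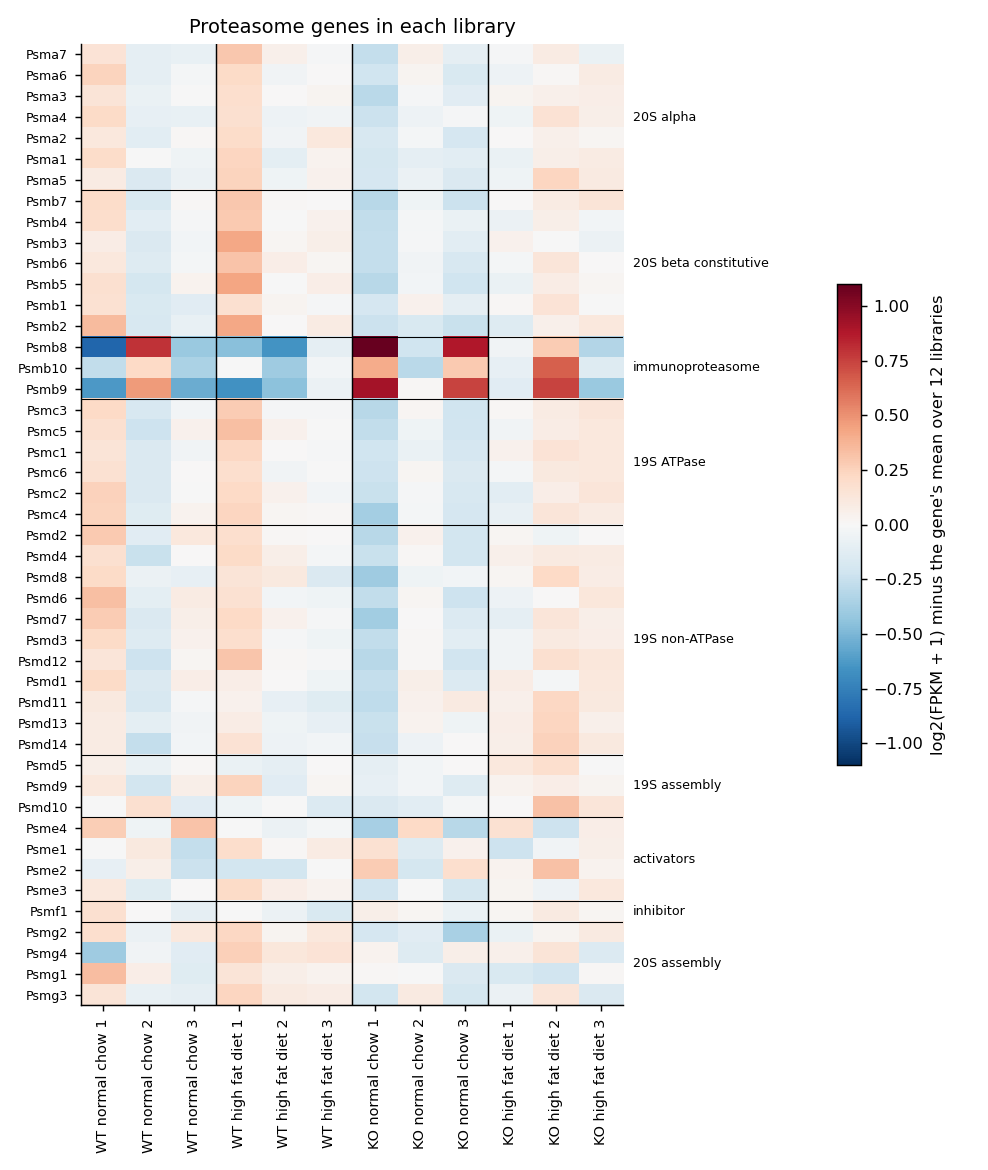
Difference of log2(FPKM + 1) from each gene's mean over 12 libraries for the 46 genes that passed the filter (rows, by role) in each library (columns, by group). Columns of 1 colour over the constitutive subunits show libraries in which they are high or low together, and the rows of Psmb8, Psmb9 and Psmb10 go the opposite way in WT chow 2, KO chow 1 and KO chow 3.

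The low libraries of the constitutive subunits were thus the lymphoid-rich ones. WT chow 2 was among the lowest 3 libraries for 29 of the 31 genes, KO chow 1 for 31 and KO chow 3 for 25. The lymphoid-rich libraries also had the lowest summed FPKM without the largest value. In KO chow 3 that largest value was Mir324, listed at 1.02e+07 FPKM. Relative depth was highest in KO chow 1 and KO chow 3, at 1.35 and 1.31, and was 1.14 in WT chow 2. The part of scale and depth was not tested. Ckm was at 18104, 15178 and 13276 FPKM in these 3 libraries and at 17661 to 25896 FPKM in the other 9, and the part of the leukocyte and muscle markers in the level of the subunits was not tested. In RNA of whole muscle, fewer cells of a type and less RNA in each cell cannot be told apart.

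For the immunoproteasome subunits the same markers went the other way. All of Psmb8, Psmb9 and Psmb10 lay above their mean in 4 libraries, namely the 3 lymphoid-rich ones and KO high fat 2. In KO high fat 2 the T and B cell sum was 2.73 FPKM, with all 11 markers under 1 FPKM. That library held the highest sum of 5 macrophage markers, at 165 FPKM against 21.3 to 130.5 FPKM in the others, and the highest sum of 12 interferon-response genes, at 68.8 FPKM against 27.4 to 60.3 FPKM. Cxcl10, a chemokine induced by interferon, was at 4.67 FPKM there and at 0.0551 to 1.69 FPKM in the others, and did not reach the minimum for testing. Of the 12 interferon-response genes, Ifng, Stat2, Irf8, Ifit1 and Ifit3 were not highest in KO high fat 2. Ifng was listed at 0 there, and Irf8 was at 5.76 FPKM there against 10.8 FPKM in KO chow 3. The rest of the 12 were highest in KO high fat 2. The part of these markers in the level of the immunoproteasome was not tested.

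**Figure D4:**
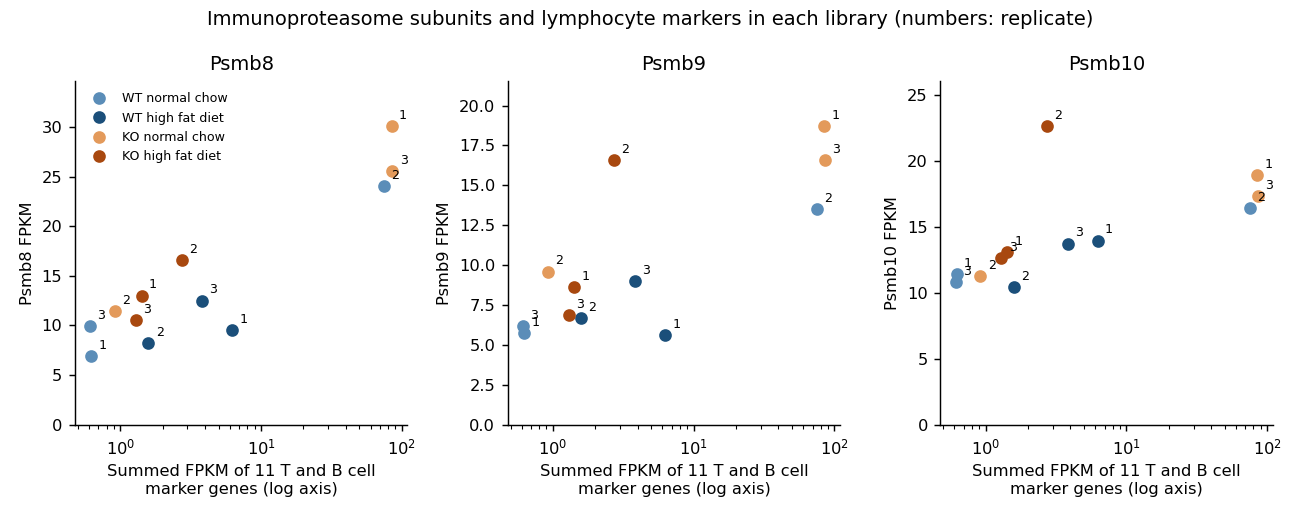
FPKM of Psmb8, Psmb9 and Psmb10 (y axes, from 0) against the summed FPKM of 11 T and B cell marker genes (x axes, log scale) in each of 12 libraries, coloured by group, with replicate numbers. The 3 libraries at 75.1 to 85.8 FPKM of markers are high in each panel, and KO high fat 2, at 2.73 FPKM of markers, is as high for Psmb9 and higher for Psmb10.

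No proteasome gene passed an adjusted p of 0.05 in limma, fitted on log2(FPKM + 1) over all 11945 genes, in any of the comparisons below. Folds are therefore given with their standard error (SE) and 95% interval, and a value that did not pass does not show that the groups are alike.

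In WT mice, high fat diet was compared with normal chow. The core assembly chaperone Psmg4 gave the smallest p of the 46 genes, at 10.8, 14.1 and 13.2 FPKM on chow against 17.5, 15.8 and 16.2 FPKM with high fat feeding (log2 fold change 0.36, SE 0.11, interval 0.12 to 0.60, limma adjusted p = 0.297). Its groups did not overlap, with high fat higher, as for 6.20% of all genes tested, against 6.88% with high fat lower, and no other proteasome gene had groups that did not overlap. The next 2 genes by p were Psmb3, a structural β subunit, at 0.20 (SE 0.12) and the core chaperone Psmg3 at 0.15 (SE 0.11), and without WT high fat 1 the value of Psmb3 was 0.077. Of the 46 genes, 0 passed the adjusted threshold, where 0.10% of all genes tested did. At an unadjusted p under 0.05 there was 1 gene higher and 0 lower, against 4.42% and 3.70% of all genes. Without the lymphoid-rich libraries the value of Psmg4 was 0.43 and that of the activator Psme4 was -0.32.

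The constitutive subunits had a median log2 fold change of 0.08 on high fat diet in WT mice, positive for 27 of 31, against -0.01 over all genes tested. Under quantile normalization this median was -0.01 with 14 of 31 positive, and without the lymphoid-rich libraries it was -0.01 with 13 of 31 positive, so its direction turned under both. Psmb8, Psmb9 and Psmb10 gave -0.24 (SE 0.42), -0.16 (SE 0.36) and -0.01 (SE 0.25). Without the lymphoid-rich libraries these 3 values turned to 0.24, 0.20 and 0.17, each with an interval that included 0. The 11 T and B cell markers had lower means on high fat diet in 11 of 11, with sums of 0.612 to 75.1 FPKM on normal chow and 1.59 to 6.25 FPKM on high fat diet, and their part was not tested. WT chow 2 alone carried that direction, since the sums in WT chow 1 and WT chow 3 were 0.622 and 0.612 FPKM, below every high fat library. In both, all 11 markers were under 1 FPKM, so directions of single markers without WT chow 2 are not given. Neutrophil markers stood the other way, at 118 to 1100 FPKM summed on high fat diet against 1.96 to 25.2 FPKM on normal chow, and their part was not tested either.

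In KO mice, the same contrast of diets gave positive values for all 31 constitutive subunits. Their median log2 fold change was 0.19, ranging from 0.10 to 0.27, against a median of 0.03 over all genes tested. The smallest p belonged to Psmc1, the ATPase Rpt2, at 79.7, 88.4 and 81.7 FPKM on chow against 96.1, 103 and 101 FPKM with high fat feeding (log2 0.26, SE 0.10, interval 0.04 to 0.48, limma adjusted p = 0.431). Next came Psmd10, at 7.15, 7.42 and 7.97 against 8.12, 10.4 and 8.99 FPKM (log2 0.25, SE 0.10), and Psmg2, at 24.9, 26.0 and 22.0 against 26.99, 29.0 and 30.5 FPKM (log2 0.24, SE 0.10). In all of these 3 genes every high fat library lay above every normal chow library. These values were 0.18, 0.27 and 0.14 without the lymphoid-rich libraries, and without KO high fat 2 the value of Psmd10 was 0.17.

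Groups did not overlap for 16 of the 46 genes in KO mice, all higher on high fat diet, and 13 of these were constitutive subunits. Over all genes tested, 10.7% were apart with high fat higher and 6.14% with high fat lower. At an unadjusted p under 0.05 there were 4 of 46 genes higher and 0 lower, against 6.56% and 4.73% of all genes, and 0 of 46 passed the adjusted threshold, as did 0% of all genes. The size of the shift depended on scaling and on the 2 lymphoid-rich libraries of the normal chow group. Quantile normalization gave a median of 0.04 with 22 of 31 positive, beside 0.03 over all genes. Leaving out the lymphoid-rich libraries gave 0.07 with 27 of 31 positive, against 1 remaining normal chow library. Muscle markers had the same direction as the subunits, at a median of 0.23 with 8 of 10 tested markers positive, and at -0.13 with 4 of 10 positive without the lymphoid-rich libraries. Their part was not tested.

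Psmb8 and Psmb9 had values of the opposite sign to the constitutive subunits in KO mice, at -0.62 (SE 0.42, interval -1.54 to 0.30) and -0.49 (SE 0.36, interval -1.29 to 0.31). Psmb10 was at 0.01 (SE 0.25), and at -0.02 with size factors and -0.06 with quantile normalization. Without the lymphoid-rich libraries Psmb8 and Psmb9 turned to 0.19 and 0.05, and Psmb10 was at 0.43. Means of the T and B cell markers were lower on high fat diet for 11 of 11, with summed levels of 0.919 to 85.8 FPKM on normal chow and 1.29 to 2.73 FPKM on high fat diet, and their part was not tested. KO chow 1 and KO chow 3 carried that direction, since the sum in KO chow 2 was 0.919 FPKM, below every high fat library. In KO chow 2 and the KO high fat libraries all 11 markers were under 1 FPKM.

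KO and WT mice were next compared on normal chow. Here all 31 constitutive subunits had negative log2 fold changes, from -0.26 to -0.02 with a median of -0.16, against -0.03 over all genes tested. The smallest p was that of the core chaperone Psmg2, at 32.6, 27.2 and 30.9 FPKM in WT mice and 24.9, 26.0 and 22.0 FPKM in KO mice (log2 -0.30, SE 0.10, interval -0.51 to -0.09, limma adjusted p = 0.277). Groups did not overlap for Psmg2 and for Psma1, an α subunit, with KO lower in both, as for 10.2% of all genes tested, against 8.15% with KO higher. Of the 46 genes, 1 was lower and 0 were higher at an unadjusted p under 0.05, against 9.93% and 6.73% of all genes, and 0 passed the adjusted threshold, where 0.0586% did. The third gene by p was Psmd6, a subunit of the cap's lid, at -0.26 (SE 0.13), and at -0.15 without WT chow 1. Quantile normalization brought the median of the constitutive subunits to -0.03 with 22 of 31 negative, beside -0.05 over all genes. Leaving out the lymphoid-rich libraries gave -0.09 with 27 negative. The muscle markers had a median of -0.23 with 8 of 10 negative, and of -0.02 with 5 of 10 negative without those libraries, and their part was not tested.

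All 3 immunoproteasome subunits had a higher mean in KO than in the WT chow group. Mean Psmb8 was 22.4 ± 9.76 FPKM for KO chow against 13.6 ± 9.16 FPKM for WT chow (SD, n = 3), a log2 fold change of 0.75 (SE 0.42, interval -0.17 to 1.67, limma adjusted p = 0.357). Psmb9 was at 14.96 ± 4.77 against 8.48 ± 4.37 FPKM, at 0.80 (SE 0.36, interval -0.00 to 1.59, limma adjusted p = 0.300). Psmb10 was at 15.9 ± 4.06 against 12.9 ± 3.08 FPKM, at 0.27 (SE 0.25). The groups overlapped for each of the 3 genes. The KO group held 2 lymphoid-rich libraries and the WT group 1, and the T and B cell markers had higher means in KO mice for 11 of 11, with sums of 0.919 to 85.8 FPKM in KO mice and 0.612 to 75.1 FPKM in WT mice. Without these libraries, with 1 KO library against 2 WT libraries, the values were 0.42, 0.61 and 0.02. In the libraries left, all 11 T and B cell markers were under 1 FPKM, so their direction is not given.

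**Figure D5:**
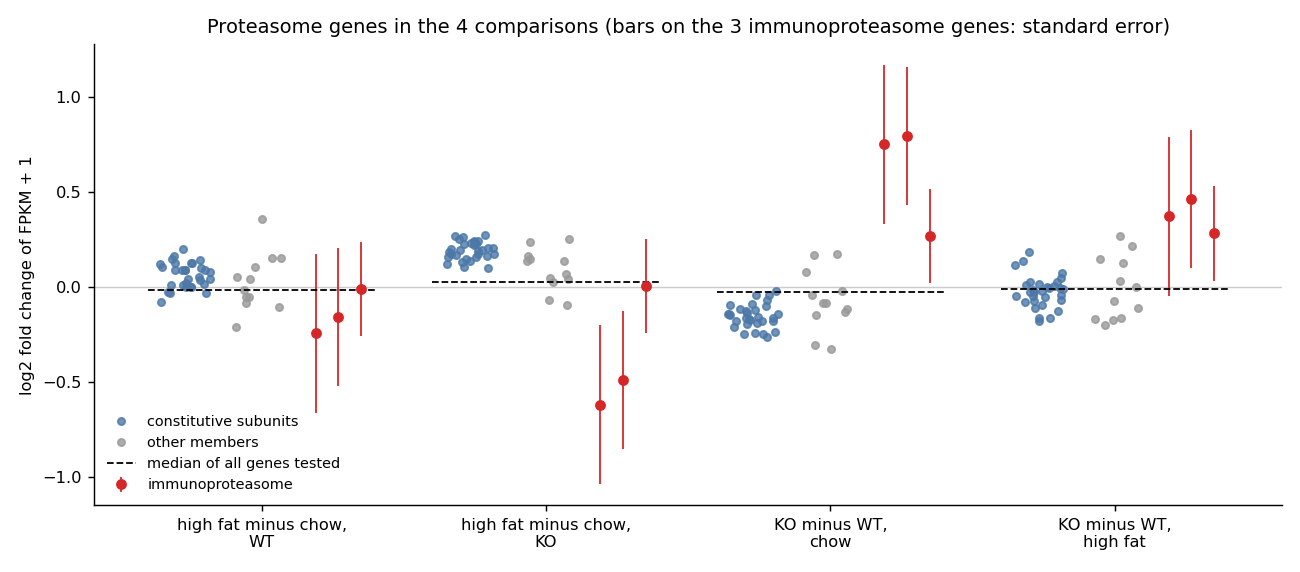
Log2 fold change of FPKM + 1 for the 46 proteasome genes in 4 comparisons, with the constitutive subunits in blue, other genes in grey and, from left to right, Psmb8, Psmb9 and Psmb10 in red with their standard errors. Dashed lines give the median of 11945 genes, and the constitutive subunits form a narrow band from 0.10 to 0.27 for diet in KO mice and from -0.26 to -0.02 for KO against WT on normal chow.

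On high fat diet, where no library was lymphoid-rich, the constitutive subunits lay close to 0 between KO and WT mice. Their median log2 fold change was -0.02 with 10 of 31 positive, beside -0.01 over all genes. Under quantile normalization it turned to 0.02 with 18 of 31 positive, beside -0.04 over all genes. The 3 smallest p-values were those of Psmd10 at 0.22 (SE 0.10, interval -0.00 to 0.44, limma adjusted p = 0.312), Psmd5 at 0.15 (SE 0.07) and Psme2, the interferon-induced activator PA28β, at 0.27 (SE 0.14). Psmd10 was at 7.84, 8.08 and 7.21 FPKM in WT mice against 8.12, 10.4 and 8.99 FPKM in KO mice. The cap chaperones Psmd10 and Psmd5 and the activator Psme2 thus had a higher mean in KO mice. The remaining cap chaperone, Psmd9, had means of 9.34 FPKM in WT mice and 9.28 FPKM in KO mice. Without KO high fat 2 the values of Psmd10 and Psme2 were 0.13 and 0.18.

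Groups did not overlap for Psmd10, Psme2, the lid subunit Psmd11 and the inhibitor Psmf1, with KO higher, and for the core chaperone Psmg1 with KO lower. Over all genes tested, 13.0% were apart with KO higher and 10.7% with KO lower. None of the 46 genes had an unadjusted p under 0.05, where 9.79% of all genes did with KO higher and 6.45% with KO lower, and 0 passed the adjusted threshold in limma, where 0.109% did. Leaving out the lymphoid-rich libraries changed no fold change of this comparison, only the estimate of the spread, which then came from fewer libraries.

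Psmb8, Psmb9 and Psmb10 gave 0.37 (SE 0.42, interval -0.55 to 1.29), 0.46 (SE 0.36, interval -0.34 to 1.26) and 0.28 (SE 0.25, interval -0.26 to 0.83) on high fat diet. Mean Psmb8 was 13.4 ± 3.03 FPKM for KO high fat against 10.1 ± 2.21 FPKM for WT high fat, and Psmb10 at 16.1 ± 5.67 against 12.7 ± 1.98 FPKM (SD, n = 3). Without KO high fat 2 the values of Psmb8, Psmb9 and Psmb10 were 0.22, 0.13 and 0.03. Macrophage markers had higher means in KO mice for 5 of 5, with summed levels of 78.1 to 165 FPKM against 21.3 to 62.8 FPKM. B cell markers, mostly under 1 FPKM in these libraries, had lower means for 5 of 5. Neutrophil markers were lower for 4 of 4 tested, with sums of 9.61 to 39.4 FPKM in KO mice against 118 to 1100 FPKM in WT mice and a median log2 fold change of -4.27. Adipocyte markers were higher for 4 of 4, with sums of 288 to 408 against 3.13 to 270.0 FPKM and a median of 2.63. Markers at an unadjusted p under 0.05 were 5 of 5 for macrophages, 4 of 4 for neutrophils, 4 of 4 for adipocytes and 0 of 5 for B cells. Of all genes, 9.79% were at that level with KO higher and 6.45% with KO lower. In limma 0 of these markers passed the adjusted threshold, and the part of all these markers was not tested.

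The interaction, which is the diet contrast in KO mice minus that in WT mice, passed the adjusted threshold for 0 of the 46 genes, as for 0% of all genes tested. At an unadjusted p under 0.05 there was 1 gene, Psmd10, at 0.33 (SE 0.14, limma adjusted p = 0.775), with 3.55% of all genes higher and 2.70% lower at that level. Psmg4 followed at -0.33 (SE 0.16) and Psmd5 at 0.19 (SE 0.10). Psmb8, Psmb9 and Psmb10 were at -0.38 (SE 0.59), -0.33 (SE 0.51) and 0.01 (SE 0.35). The median of the 31 constitutive subunits was 0.14 with 29 positive, and 0.05 with 23 positive under quantile normalization. With the lymphoid-rich libraries left out it was 0.09 with 25 positive. The 3 immunoproteasome values were then -0.05, -0.14 and 0.27, and Psmd10 was at 0.27.

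With both genotypes averaged, high fat diet gave positive values for all 31 constitutive subunits, with a median of 0.12 against 0.01 over all genes. Under quantile normalization this median was 0.006 with 21 of 31 positive, beside 0.014 over all genes. Without the lymphoid-rich libraries the median of the subunits was 0.03, with 23 positive. By p the first genes were Psmc1 at 0.18 (SE 0.07, limma adjusted p = 0.328), Psmg4 at 0.19 (SE 0.08) and the α subunit Psma5 at 0.18 (SE 0.08), and without the lymphoid-rich libraries these were 0.10, 0.29 and 0.12. In all, 4 of 46 genes were higher and 0 lower at an unadjusted p under 0.05, against 7.96% and 5.94% of all genes, and 0 of 46 passed the adjusted threshold, where 0.0586% did. Muscle markers were positive for 10 of 10 with a median of 0.13, Acta1 with its listed 0 values among them. Without the lymphoid-rich libraries 5 of 10 were positive with a median of -0.01, and the part of these markers was not tested. No proteasome gene had groups of 6 that did not overlap, where 0.460% of all genes did with high fat higher and 0.268% with high fat lower. Psmb8, Psmb9 and Psmb10 were at -0.43 (SE 0.30), -0.32 (SE 0.26) and -0.00 (SE 0.18), and at 0.21, 0.13 and 0.30 without the lymphoid-rich libraries.

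With both diets averaged, KO minus WT gave 0.56 for Psmb8 (SE 0.30, limma adjusted p = 0.245), 0.63 for Psmb9 (SE 0.26, interval 0.06 to 1.19, limma adjusted p = 0.151) and 0.28 for Psmb10 (SE 0.18). Psmg2 gave -0.20 (SE 0.07, limma adjusted p = 0.104) and Psme2 gave 0.22 (SE 0.10, limma adjusted p = 0.172). Psmb9 and Psme2 were the 2 genes of 46 higher in KO mice at an unadjusted p under 0.05, against 13.1% of all genes, and Psmg2 was the 1 lower, against 13.4%. At the adjusted threshold there were 0 of 46, where 0.862% of all genes passed, and none had groups of 6 that did not overlap, where 1.72% did with KO higher and 0.996% with KO lower. Without the lymphoid-rich libraries Psme2 was at 0.12 and the immunoproteasome values were 0.40, 0.54 and 0.15. The constitutive median went from -0.10 to -0.06 without them, and it was -0.01 under quantile normalization.

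The activators Psme1 and Psme2 form the PA28 ring that interferon induces together with the immunoproteasome. Psme2 was at 38.1, 42.4 and 34.3 FPKM in the WT chow group, at 35.1, 35.1 and 40.5 FPKM in the WT high fat group, at 49.3, 35.3 and 46.1 FPKM in the KO chow group, and at 41.8, 51.0 and 41.6 FPKM in the KO high fat group. Its 3 highest libraries were KO high fat 2, KO chow 1 and KO chow 3, which were also among the 4 high libraries of the immunoproteasome. Psme1 was at 41.9, 45.4 and 34.8 FPKM, at 48.4, 42.4 and 44.8 FPKM, at 47.4, 38.2 and 43.4 FPKM, and at 35.8, 40.9 and 44.2 FPKM in the same order. The range of Psme1 over libraries was 1.39-fold and that of Psme2 1.49-fold, against at least 2.17-fold for the 3 immunoproteasome genes.

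Genes that work beside the immunoproteasome in class I presentation were looked at as a list of 12, and 0 passed the adjusted threshold in limma in each comparison. All 12 had a higher mean in the KO chow group, with a median log2 fold change of 0.41, and on high fat diet, with a median of 0.27. The chow median was 0.18 with 11 of 12 positive without the lymphoid-rich libraries, of which KO chow held 2. With diets averaged, 7 of 12 were higher at an unadjusted p under 0.05, against 13.1% of all genes. The averaged median was 0.36, and 0.21 without the lymphoid-rich libraries. The 7 were led by the class I heavy chains H2-K1 at 1.00 (SE 0.32, limma adjusted p = 0.0964) and H2-D1 at 0.71 (SE 0.23), the light chain B2m at 0.70 (SE 0.26) and the peptide-loading protein Tapbp at 0.45 (SE 0.15). Tap1, which shares bases with Psmb9, was at 6.32, 8.51 and 6.61 FPKM in the lymphoid-rich libraries, at 6.48 FPKM in KO high fat 2, and at 1.64 to 2.88 FPKM in the other 8. It thus had the same 4 high libraries as Psmb9.

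Partners and regulators of the constitutive proteasome were also looked at as lists, and 0 of their genes passed the adjusted threshold. Of 11 partners tested, 10 had a higher mean on high fat diet in KO mice, with a median log2 fold change of 0.16, and 2 of 11 were at an unadjusted p under 0.05, against 6.56% of all genes higher. Their median was 0.01, with 6 of 11 positive, without the lymphoid-rich libraries. The 2 were Pomp, the maturation factor of the core, at 0.27 (SE 0.11, limma adjusted p = 0.431) and Usp14, a deubiquitinase of the cap, at 0.21 (SE 0.08). Nfe2l1, the transcription factor that drives proteasome genes when proteasome activity is short, was at 226, 186 and 216 FPKM in the WT chow group and 283, 237 and 231 FPKM in the WT high fat group. It was at 169, 229.7 and 214 FPKM in the KO chow group and 266, 260.2 and 240.2 FPKM in the KO high fat group. The 6 libraries on high fat diet all lay above the 6 on normal chow, as for 0.460% of all genes tested, with an averaged log2 fold change of 0.29 (SE 0.09, limma adjusted p = 0.245). The nearest libraries of the 2 diets were KO chow 2 at 229.7 FPKM and WT high fat 3 at 231.45 FPKM. The lymphoid-rich libraries held the lowest values of Nfe2l1, and its fold change without them is not given here. Vcp, the segregase that hands substrates to the proteasome and helps to release Nfe2l1, was at 0.30 (SE 0.12) for diet in KO mice. It was at 185, 238 and 201 FPKM in the KO chow group, with the 238 in KO chow 2, and at 250, 255 and 258 FPKM in KO high fat. In WT mice its mean was 235 FPKM on both diets. The 4 regulators tested had a median of 0.22 for diet in KO mice with 4 of 4 positive. Without the lymphoid-rich libraries that median was 0.12 with 3 of 4 positive. For the same contrast the 6 genes of ubiquitin and its activating enzymes had a median of 0.10 with 5 of 6 positive. Their median was 0.04 with 3 of 6 positive without the lymphoid-rich libraries.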

How the data were processed

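The authors sequenced total RNA of hind limb muscle as paired-end reads and deposited FPKM values (fragments scaled to transcript length and library size), 1 for each gene in each library. The files name no unit, and FPKM was taken from the size and steps of the values. The submitters' processing notes name TopHat2 2.0.8b, Cuffdiff 2.1.1 and mm10, and strand handling and annotation are not given in the sources used here. Each of the 12 files lists 23179 rows. Where a symbol occurred more than once, its most abundant row was used.

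The proteasome genes and the gene lists were chosen with earlier results of these data known. Genes with at least 1 FPKM in at least 3 libraries were tested on log2(FPKM + 1), with a pseudocount of 1 FPKM, which understates the change of low genes. The fit was limma 3.58.1 in R 4.3.3 (4 group means, trended variance, 8 residual degrees of freedom), with Benjamini-Hochberg adjustment over 11945 genes and a threshold of 0.05. It was tested on simulated data. P-values measure the spread between mice, 3 in each group. Named in each comparison were the immunoproteasome genes and the 3 genes with the smallest p, and named by level the extremes of each class. Nfe2l1, Vcp, Pomp, Usp14, Cxcl10 and the class I genes were named after their values were seen. Groups follow the titles.

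Depth in reads is unknown, so no counting intervals are given. Same-numbered mice did not deviate together (correlations from -0.81 to 0.39), and nothing says that they were handled together. Alternatives were the pseudocount, filters, scaling, a replicate block, fits of the compared groups alone, genotype by label, robust variance moderation and each library left out. Leaving out the lymphoid-rich libraries was added after seeing the data. Positions are from GENCODE M21, and tables and plots were made with Python 3.11.15, pandas 2.3.3, NumPy 2.4.6 and Matplotlib 3.10.9.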

Additional observations from a re-analysis of the deposited data

How the results depend on the processing

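No proteasome gene passed the adjusted threshold under any alternative that was run, and the lowest adjusted p was 0.0520, without KO chow 2. The count of proteasome genes at an unadjusted p under 0.05 depended on single libraries, on the filter and on scaling. It was at most 4 in a comparison of the main fit, and 5 with quantile normalization. With no filter on low values, where the 2 tissue-restricted genes were tested as well, it was at most 9. The largest count was 16 without WT chow 1 or without KO chow 2, and 12 without WT chow 2. The share of all genes at that level under these settings is not given here. These counts are therefore not a result about the proteasome genes. Depth in reads is unknown, which limits what can be said of low genes. The fit blocked by replicate number (replicate block) called 0 genes, with a lowest adjusted p of 0.170. Outside the contrast of diets in WT mice, same-numbered mice did not deviate together. A fit of the compared groups alone was not run for the interaction and the averaged contrasts. The cause of the turns below was not tested beyond what each setting changes.

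Grouping by the conflicting genotype label, which puts 6 libraries in the other genotype, turned the most values. For diet in WT it gave log2 fold changes of 0.021, 0.30 and 0.31 for Psmb8, Psmb9 and Psmb10, and for diet in KO -0.20 for Psmb10. For genotype on high fat it gave -0.50, -0.71 and -0.42 for those 3 genes, -0.18 for Psmd10, -0.19 for Psmd5 and -0.28 for Psme2. For the interaction it gave -0.51 for Psmb10, -0.035 for Psmd10 and -0.13 for Psmd5, and for averaged diet 0.055 for Psmb10. For averaged genotype it gave -0.079, -0.13 and -0.17 for the 3 immunoproteasome genes, 0.0072 for Psmg2 and -0.11 for Psme2. Under this label the high fat WT ratios were 10.6%, 8.19% and 5.66% for the 3 pairs, and the high fat KO ratio of Psmb8 to Psmb5 was 6.79%.

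Psmb10, whose main values were near 0, went to -0.025 for diet in KO and -0.020 for the interaction with median-of-ratios size factors, and to -0.062 and -0.043 with quantile normalization. Without the lymphoid-rich libraries, a choice added after seeing the data, Psmb8, Psmb9 and Psmb10 turned to 0.24, 0.20 and 0.17 for diet in WT and 0.21, 0.13 and 0.30 for averaged diet, Psmb8 and Psmb9 to 0.19 and 0.055 for diet in KO, and the KO chow ratios were 8.44%, 6.80% and 3.83%.

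With each library left out in turn, a lone pair of libraries stood for its group. The ranges that crossed 0 were, for diet in WT, -0.60 to 0.24 for Psmb8, -0.35 to 0.20 for Psmb9 and -0.11 to 0.17 for Psmb10, each positive without WT chow 2. For Psmb10 they were also -0.25 to 0.15 for diet in KO, -0.24 to 0.16 for the interaction and -0.13 to 0.087 for averaged diet, with the lowest value in each of these without KO high fat 2. Other ranges kept their sign but went over 1.5 times from the value with all libraries. For Psmb8 they were -1.02 to -0.36 for diet in KO, 0.40 to 1.23 for genotype on chow and -0.86 to -0.023 for the interaction. For Psmb9 they were -0.83 to -0.25 for diet in KO and -0.69 to -0.092 for the interaction. For genotype on high fat, Psmb8 ran from 0.22 to 0.53, Psmb9 from 0.13 to 0.70 and Psmb10 from 0.026 to 0.42. Psmd10 ran there from 0.13 to 0.29 and Psme2 from 0.18 to 0.34. Psmb3 ran from 0.077 to 0.28 for diet in WT, Psmd10 from 0.17 to 0.33 for diet in KO and Psmd6 from -0.37 to -0.15 for genotype on chow. Psmb8 and Psmb9 ran from -0.63 to -0.19 and from -0.49 to -0.14 for averaged diet, and Psmb10 from 0.13 to 0.48 for genotype on chow and 0.15 to 0.38 for averaged genotype.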
